A study of Mus musculus with 10 samples.

Results

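The Tex genes of the mouse, named for their expression in testis, were followed across testes of 10 young males. Members were all genes whose array probe carried an accession that a RefSeq gene table pairs with a symbol of Tex followed by a digit, leaving out Tex11 and Tex12. The rule gave 35 genes, with 46 probes, of 23458 genes named on the array, and it used no measured value. All 35 were among the 16732 genes tested, and 34 were well above background on all 10 arrays. The exception was Tex16, which was well above background on 5 of 5 C arrays and 3 of 5 R arrays.

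All animals were C57BL/6N males killed at 6 weeks of age, and each array held RNA of a single testis. The 5 C males were born to mothers on unlimited chow, who also reared them. The 5 R males were born to mothers held at 50% of the intake of control mothers from 6.5 days post coitum onward, and were reared by unrelated C mothers. Maternal diet and fostering therefore changed together and cannot be told apart. Both groups ate regular chow freely after weaning. The labels do not tie animals to litters, so animals of a group may share a litter and the p-values may then be too small.

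Sperm form in the seminiferous tubules, where spermatogonia divide, spermatocytes pass through meiosis, and round spermatids elongate into sperm while Sertoli cells support them. The Tex symbol records where a transcript was found and marks no common protein family. Its bearers range from guards of the germline genome, through proteins of the sperm surface and tail, to housekeeping proteins of the endoplasmic reticulum and the nucleolus. Whole testis mixes all of these cells, so fewer cells of a type and less RNA per cell cannot be told apart in any value given here.

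The promoters of the 4 genes that passed the test whichever single array was left out, all lower in R, are shown side by side. They were picked by that outcome, and their order over the arrays of a group differed. R replicate 3 was the lowest R array for Tex19.1 (1.40) and the highest for Tex30 (3.34). Each window runs from 250 bases before to 50 bases after the first listed start of the gene in RefSeq (GRCm38.p6). It is written 5′ to 3′ on the gene's own strand. Capitals mark matches, on either strand, to TGACG (the half-site of a CRE, bound by CREB and CREM factors), GTTGCC (the X-box half-site of RFX factors), GCGGGAA (an E2F site) and TATAAA (the TATA box). The windows lie at chr11:121145893-121146192 on the plus strand for Tex19.1, chr11:121118628-121118927 on the minus strand for Tex19.2, chr1:44102392-44102691 on the minus strand for Tex30 and chr6:70918873-70919172 on the minus strand for Tex37.
Tex19.1: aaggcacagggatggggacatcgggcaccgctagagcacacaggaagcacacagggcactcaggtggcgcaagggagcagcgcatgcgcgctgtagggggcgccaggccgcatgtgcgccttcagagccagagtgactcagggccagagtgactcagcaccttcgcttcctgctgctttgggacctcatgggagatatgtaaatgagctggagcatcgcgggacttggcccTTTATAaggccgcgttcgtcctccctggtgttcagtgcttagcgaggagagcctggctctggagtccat
Tex19.2: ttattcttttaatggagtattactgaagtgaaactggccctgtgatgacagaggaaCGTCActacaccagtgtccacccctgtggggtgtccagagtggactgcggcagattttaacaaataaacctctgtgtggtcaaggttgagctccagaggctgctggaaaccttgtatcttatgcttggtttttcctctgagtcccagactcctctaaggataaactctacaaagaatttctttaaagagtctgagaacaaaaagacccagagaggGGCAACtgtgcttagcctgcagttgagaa
Tex30: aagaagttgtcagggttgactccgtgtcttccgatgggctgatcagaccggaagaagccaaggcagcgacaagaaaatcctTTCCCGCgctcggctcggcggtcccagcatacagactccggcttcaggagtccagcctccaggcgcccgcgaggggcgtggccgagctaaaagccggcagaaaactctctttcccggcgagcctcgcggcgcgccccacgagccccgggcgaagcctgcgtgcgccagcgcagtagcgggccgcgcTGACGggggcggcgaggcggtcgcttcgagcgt
Tex37: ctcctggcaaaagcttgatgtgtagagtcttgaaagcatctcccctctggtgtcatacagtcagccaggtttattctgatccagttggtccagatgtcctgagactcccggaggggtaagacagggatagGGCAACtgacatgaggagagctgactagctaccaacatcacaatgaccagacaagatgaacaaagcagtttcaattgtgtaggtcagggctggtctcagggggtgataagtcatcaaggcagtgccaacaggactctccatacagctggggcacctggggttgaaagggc

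These 4 windows shared little by this search. Tex30 held 38 CpG dinucleotides, Tex19.1 16, Tex19.2 2 and Tex37 1, against a median of 7 over 32851 RefSeq windows of this length and a median of 4 over the 29 members with a window. Each member counts by its first listed window, while the 32851 windows were not reduced to a single window per gene. The same holds for the motif shares below. Tex19.1 held the TATA letters alone, while Tex19.2 held a CRE half-site and an X-box half-site. Tex30 held a CRE half-site and an E2F site, and Tex37 an X-box half-site.

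Over the 29 members, the CRE half-site stood in 5 (17.2%, against 20.8% of all windows) and the X-box half-site in 6 (20.7%, against 12.5%). The E2F site stood in 4 (13.8%, against 4.6% of all windows) and the TATA box in 3 (10.3%, against 13.6%). The E-box CACGTG was found in 2 members and 7.15% of all windows, and the full CRE TGACGTCA, which contains the half-site, in 0 members and 1.79%. The CCAAT box, searched after the sequences had been seen, stood in 9 members and 37.4% of all windows. Tex101 held it 4 times, as 1.06% of all windows did at least that often. A match describes letters and is no measured binding site.

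Array signal is given as log2 signal, the log2 of the processed spot intensity minus the 75th percentile of its array, so a value of 0 lies at that percentile and values of different genes are not compared. Differences are R minus C. A gene was called when limma's moderated test gave a Benjamini-Hochberg adjusted p under 0.05 over all 33851 tested probes. Of the 35 Tex genes, 9 were called, or 25.7%, where 36.1% of all tested genes were. They comprised 2 called higher in R (5.71%, against 13.1% of all genes) and 7 called lower (20%, against 22.9%). The share of Tex genes called was thus below that of the array as a whole, and the share lower in R was near it.

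The arrays of C and R did not overlap for 7 members, or 20%, where 29.3% of all tested genes did not. The R mean was lower for 19 members, against 56.2% of all tested genes, and higher for 16, and the median difference was −0.05, the same as over all tested genes. The study's own criterion adds a fold above 1.5 or under 0.66 to the adjusted p. With the brightest probe standing for each gene only Tex19.1 met it, 2.86% of the members against 10.4% of all genes. With the mean of a gene's probes 4 members met it, and the share of all genes was not counted there. Members ran from −0.83 for Tex19.1 to 0.60 for Tex24, as the plot of differences by role shows.

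**Figure D1:**
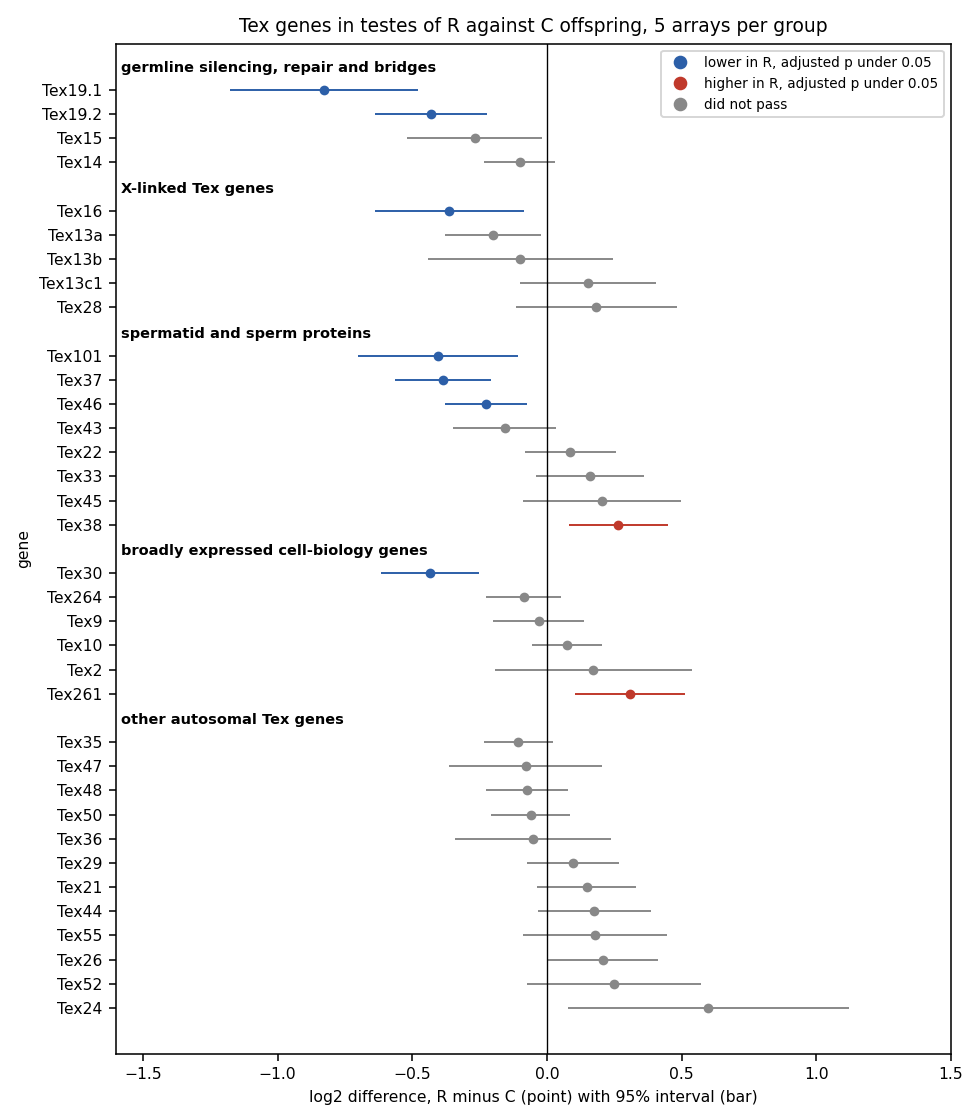
Log2 difference between R and C (R minus C; x axis) for each of the 35 Tex genes (y axis), grouped by role, as points with 95% confidence intervals, 5 arrays per group. Blue points are the 7 genes called lower in R, red points the 2 called higher and grey points the 26 that did not pass; Tex19.1 lies farthest to the left at −0.83, and Tex24 farthest to the right at 0.60 with a wide interval.

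On each array 54.6 to 66% of 56605 probes passed the background flag, and 0 spots were saturated. On the first principal component, which held 59.9% of the variance over tested probes, C replicate 2 stood apart at −122, the other C arrays lay at −29.5 to −13.5 and the R arrays at 32.9 to 48.2. Without C replicate 2, 2 members were higher and 6 lower, Tex16 being the one lost. Over the array, 13135 of 33851 probes were called with all arrays and 12911 without C replicate 2. R replicate 1 and C replicate 5 carry the opposite grouping in the authors' deposited table, and groups here follow the labels. With the table's grouping, 0 members and 0 probes of the array were called by limma, and 2552 probes had an unadjusted p under 0.05. Without both arrays 1 member was higher and 4 were lower, and the probes called over the array fell to 6164. Slide 1 held C replicates 1 and 2 and R replicates 1 to 4. Slide 2 held C replicates 3 to 5 and R replicate 5, so every value given for slide 2 rests on 1 R animal.

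Germline marker lists were measured on the same arrays. Counts of called genes in the lists and role groups below stand beside 22.9% lower and 13.1% higher over all tested genes. The summed level of a list adds its probes' signals on a linear scale, relative to the array's 75th percentile, and is carried by the brightest probes. The brightest was Uchl1 for spermatogonia (log2 means 4.78 in C and 4.25 in R) and Ldhc for spermatocytes (7.96 and 7.98). Of 10 spermatogonial markers 5 were lower and 1 higher, with a median difference of −0.30 and a summed level of 34.3 to 59.7 on C arrays and 27.1 to 31.2 on R arrays. Among them Kit, the stem cell factor receptor of differentiating spermatogonia, differed by −0.85 (adjusted p = 0.00273) and Stra8, which marks entry into meiosis, by −0.80 (adjusted p = 0.0025), while Gfra1, the GDNF receptor of undifferentiated spermatogonia, was higher by 0.34 (adjusted p = 0.0144). Of 8 spermatocyte markers 4 were lower and 0 higher, with a median of −0.17 and overlapping summed levels (341 to 416 in C, 339 to 366 in R). Sycp1 and Sycp3, proteins of the synaptonemal complex, differed by −0.65 (adjusted p = 0.00264) and −0.68 (adjusted p = 0.00369), and Hormad1, of the meiotic chromosome axis, had a 2-fold lower signal in R (adjusted p = 0.00179). The call was reached by 0 of 8 round spermatid markers (median −0.03, with 2 at an unadjusted p under 0.05 by limma) and by 2 of 10 elongating spermatid markers, both lower (median −0.02). Their summed levels overlapped as well, at 155 to 209 in C and 164 to 196 in R for round spermatids and 1937 to 2331 and 1971 to 2229 for elongating spermatids. The part of any cell type in the Tex values was not tested.

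Somatic lists also differed, with 22.9% of all tested genes called lower and 13.1% higher. Sertoli cell markers were lower for 7 of 9 tested (median −0.52), with a summed level of 73.0 to 133 on C arrays and 48.7 to 55.5 on R arrays, and Amh was not above background on any array. The brightest probe of that list was Ctsl, with log2 means of 5.74 (C) and 4.69 (R), and it weighs most in the sum. Leydig cell markers were lower for 4 of 8 (median −0.45), and their summed levels overlapped (29.0 to 54.6 in C, 22.0 to 29.9 in R). Macrophage markers were lower for 6 of 10 (median −0.65). Their summed level, 97.6 to 112 in C and 100.3 to 114 in R, was carried by Aif1. Group means of Aif1 on the log2 scale were 6.62 (C) and 6.73 (R), and it was not called. Every other macrophage marker had group means of at most 1.07 and a lower mean in R, so the sum does not speak for them. Among those called lower, Lyz2 and Ptprc were well above background on only 7 and 5 of 10 arrays. Their R means of −5.39 and −4.99 lay near background, which limits these calls. Endothelial markers were higher for 4 of 9 (median 0.42), with summed levels of 2.83 to 3.89 in C and 4.26 to 5.06 in R. Smooth muscle-like myoid markers split into 1 higher and 1 lower of 6 (median 0.03), and 0 of 7 adipocyte markers were called by limma (median 0.65, with 1 at an unadjusted p under 0.05). Of 6 epididymal markers, Adam7, Lcn8, Lcn9 and Crisp1 were not above background on any array, and the 1 that was tested, Spink8, was lower (−0.76). The summed levels of these last lists, C before R, were 23.3 to 31.1 and 21.5 to 26.2 for myoid cells, 3.42 to 13.3 and 5.02 to 18.8 for adipocytes and 0.308 to 0.441 and 0.222 to 0.300 for the epididymis.

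Among the genes that guard the germline genome and hold germ cells together, Tex19.1 and Tex19.2 were lower in R, and Tex15 and Tex14 did not pass. The median over these 4 genes was −0.35, and 50% of them were called lower, where 22.9% of all tested genes were. The called genes are neighbouring paralogues whose probes could share signal, and 4 genes are too few to compare shares. Tex19.1 encodes a mammal-specific germline protein that restrains retrotransposons and binds the ubiquitin ligase UBR2. Its log2 signal was 2.33, 2.94, 2.05, 2.07 and 2.27 on C replicates 1 to 5 and 1.45, 1.68, 1.40, 1.42 and 1.57 on R replicates 1 to 5. Every C array lay above every R array, and C replicate 2 was the highest. The difference of −0.83 (SE 0.16), a 1.78-fold lower signal in R (95% interval 1.39 to 2.26), had an adjusted p of 0.00464. It was −0.68 without C replicate 2, −1.15 on slide 1 and −0.56 on slide 2.

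Tex19.2, its neighbouring paralogue on chromosome 11 with no other gene of the RefSeq table between them, followed in the same direction. C replicates 1 to 5 read 2.97, 3.21, 2.75, 2.81 and 2.77 and R replicates 2.42, 2.44, 2.46, 2.50 and 2.55. The R arrays lay within a narrow band (SD 0.05) below all C arrays (SD 0.19). The difference was −0.43 (SE 0.09), 1.35-fold lower (interval 1.17 to 1.56), with an adjusted p of 0.00733. It was −0.64 on slide 1 and −0.23 on slide 2. The paralogues are alike in sequence, so their probes could share signal, which was not tested.

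Tex15 encodes a nuclear protein of male germ cells that acts with MILI in piRNA-directed silencing of transposons and is needed in meiosis. Its C arrays read 0.66, 0.69, 0.90, 0.91 and 0.92 and its R arrays 0.25, 0.39, 0.80, 0.66 and 0.64. R replicate 3 reached into the C range, and the difference of −0.27 (SE 0.11) did not pass (adjusted p = 0.0821). It passed when each array was scaled to its median (−0.46, adjusted p = 0.0142) and with array weights (−0.34, adjusted p = 0.0235). With slide as a block it did not (−0.19, adjusted p = 0.173). Array median scaling called 36.8% of all genes lower, against 22.9%. Array weights called 15064 of 33851 probes, against 13135 without weights. Tex14, which keeps the intercellular bridges between dividing germ cells open, differed by −0.10 (adjusted p = 0.189), and it too passed with array median scaling (−0.29, adjusted p = 0.0154) and with array weights (−0.14, adjusted p = 0.0303).

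Partners of these genes were measured on the same arrays. Their counts are set against 22.9% lower and 13.1% higher over all tested genes. Of 7 tested genes of transposon silencing, 3 were lower and 0 higher (median −0.08). They were Morc1 (−0.46, adjusted p = 0.0136), a repressor of transposons, Ubr2 (−0.33, adjusted p = 0.0169), the ligase bound by TEX19, and Mov10l1 (−0.31, adjusted p = 0.0263), a helicase that feeds piRNA production. Piwil2, which encodes MILI, differed by −0.08 (adjusted p = 0.528). Of 9 genes of the intercellular bridge, 4 were lower and 2 higher (median −0.14). Ect2 (−0.85) and Anln (−0.61), regulators of cytokinesis, and Pdcd6ip (−0.46), the abscission factor ALIX, were lower, while Cep55 (0.67), the midbody protein that TEX14 binds, was higher, with adjusted p from 0.000937 to 0.00681.

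**Figure D2:**
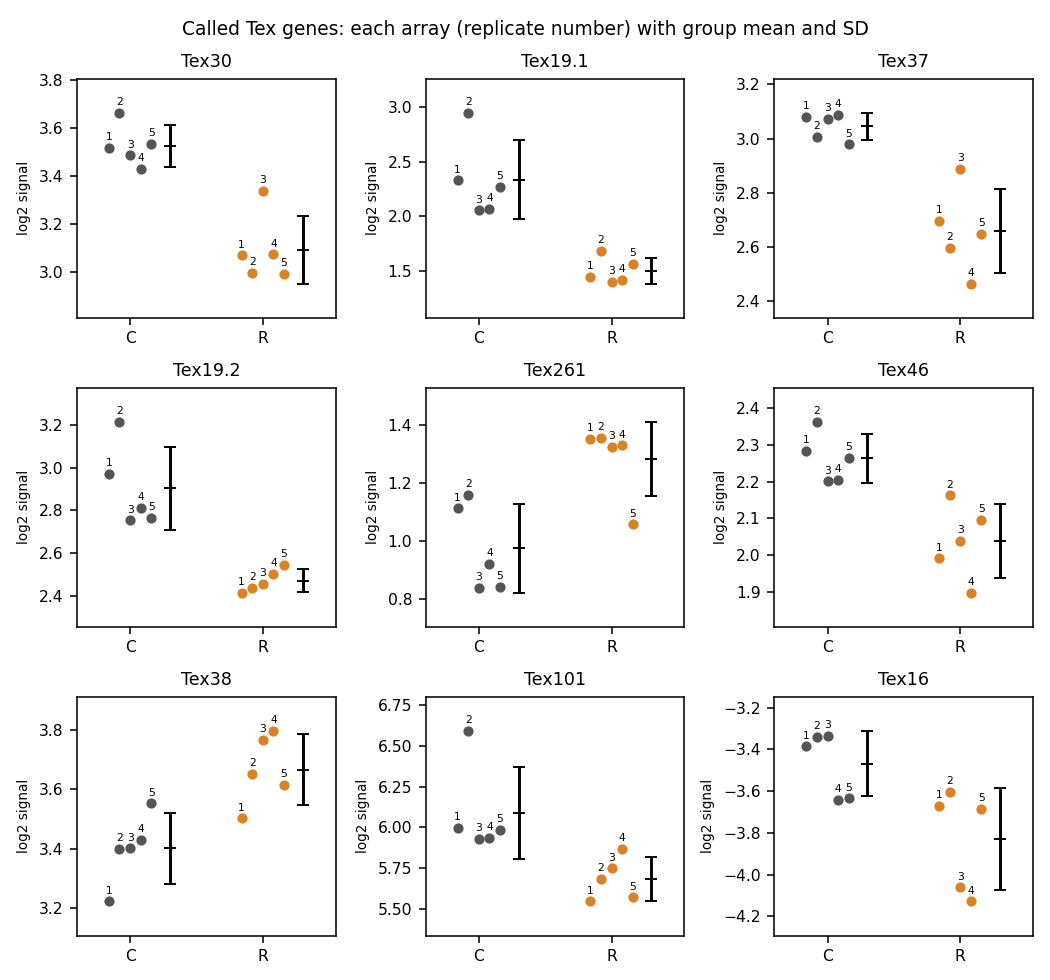
Log2 signal (y axis) of the 9 called Tex genes on each of the 10 arrays, 1 panel per gene, with C and R arrays as points marked by replicate number and each group's mean and SD as a bar beside them. The C and R points stand apart without overlap for Tex19.1, Tex19.2, Tex30, Tex37, Tex46 and Tex101, and they overlap for Tex261, Tex38 and Tex16.

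Among 8 genes for proteins of spermatids and sperm, 3 were lower and 1 higher, with a median of −0.03. These are 37.5% and 12.5%, against 22.9% and 13.1% of all tested genes. Tex37, whose product has been placed among the inner proteins of sperm tail microtubules, read 3.08, 3.01, 3.07, 3.09 and 2.98 on C arrays and 2.70, 2.60, 2.89, 2.47 and 2.65 on R arrays. The C arrays were tightly grouped (SD 0.05) above every R array (SD 0.15). The difference was −0.39 (SE 0.08), 1.31-fold lower (interval 1.15 to 1.48), with an adjusted p of 0.00646. It was −0.38 on slide 1, where it did not pass (adjusted p = 0.0638), and −0.40 on slide 2.

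Tex101 encodes a GPI-anchored protein of the germ cell surface, which sperm need for a mature ADAM3 and for passage into the oviduct. Its brighter probe read 6.00, 6.59, 5.93, 5.93 and 5.98 on C arrays and 5.54, 5.68, 5.75, 5.87 and 5.57 on R arrays. All C arrays lay above all R arrays, with C replicate 2 far above the rest. The difference was −0.40 (SE 0.13), 1.32-fold lower (interval 1.08 to 1.62), with an adjusted p of 0.0362. It was −0.28 (adjusted p = 0.0168) without C replicate 2, and the call was lost without R replicate 1, 2, 3 or 5 or C replicate 5, with an adjusted p of up to 0.0821.

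The other probe of Tex101, brought in after its values were seen, read 2.48, 3.00, 2.65, 2.69 and 2.79 on C arrays and 1.84, 1.67, 1.91, 1.95 and 2.03 on R arrays. The groups lay well apart, and the difference was −0.84 (SE 0.10, adjusted p = 0.00134). Among 12 genes of ADAM3 maturation, 3 were lower and 1 higher (median −0.07), against 22.9% and 13.1% of all tested genes. Tpst2, a tyrosine sulfotransferase, differed by −0.50 (adjusted p = 0.0115), Ly6k, the binding partner of TEX101, by −0.39 (adjusted p = 0.0127) and Calr3, a spermatid chaperone, by −0.34 (adjusted p = 0.0215). Ace, the angiotensin-converting enzyme, whose testis form sperm need to fertilise, was higher by 0.20 (adjusted p = 0.0328), and Adam3 itself differed by 0.19 (adjusted p = 0.157).

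Tex46 read 2.29, 2.36, 2.20, 2.21 and 2.26 on C arrays and 1.99, 2.16, 2.04, 1.90 and 2.10 on R arrays. The groups did not overlap, though R replicate 2 came close to the lowest C arrays. The difference was −0.23 (SE 0.07), 1.17-fold lower (interval 1.05 to 1.3), with an adjusted p of 0.0269. The call was lost without R replicate 1, 3 or 4 (adjusted p up to 0.0669) and on slide 1 alone (−0.30, adjusted p = 0.0616).

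Tex38 was the one gene of this set called higher. It encodes a membrane protein that works with the palmitoyltransferase ZDHHC19 in shaping the sperm head. C arrays read 3.22, 3.40, 3.40, 3.43 and 3.55 and R arrays 3.50, 3.65, 3.77, 3.80 and 3.62. C replicate 5 lay above R replicate 1, so the groups overlapped at that edge. The difference was 0.27 (SE 0.08), 1.2-fold higher (interval 1.06 to 1.36), with an adjusted p of 0.0294. It was lost without C replicate 1 or R replicate 2, 3 or 4 (adjusted p up to 0.0721), and it shrank to 0.08 (adjusted p = 0.586) with arrays scaled to their medians. Of the 2 palmitoylation partners 0 were called by limma, and 0 had an unadjusted p under 0.05 (median 0.04), with Zdhhc19 at 0.05 and Arrdc5 at 0.03.

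The remaining 4 genes of sperm proteins did not pass. Tex45, whose product binds axonemal microtubules, read 2.74, 2.41, 3.09, 3.07 and 2.77 on C arrays and 3.00, 2.88, 3.18, 2.92 and 3.13 on R arrays. The groups overlapped widely and C replicate 2 was the lowest array. The difference was 0.20 (SE 0.13, adjusted p = 0.231), and with slide as a block it was 0.32 (adjusted p = 0.0409). Tex33 differed by 0.16 (adjusted p = 0.172, and 0.25 with adjusted p = 0.0181 under the slide block), Tex43, another inner protein of sperm microtubules, by −0.16 (adjusted p = 0.166) and Tex22 by 0.09 (adjusted p = 0.373). Of 15 tested genes for microtubule inner proteins 2 were higher and 1 lower (median 0.07), against 13.1% and 22.9% of all tested genes. The called genes were Ribc2 (0.28, adjusted p = 0.00541), Efhb (0.19, adjusted p = 0.0449) and Nme7 (−0.18, adjusted p = 0.0345).

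Among 6 broadly expressed genes, 1 was higher and 1 lower (16.7% each, against 13.1% and 22.9% of all tested genes), with a median of 0.02. Tex30, a predicted hydrolase whose role is little described, read 3.52, 3.66, 3.49, 3.43 and 3.54 on C arrays and 3.07, 3.00, 3.34, 3.07 and 2.99 on R arrays. All R arrays lay below all C arrays, with R replicate 3 nearest to them. The difference was −0.43 (SE 0.08), 1.35-fold lower (interval 1.19 to 1.53), with an adjusted p of 0.00451, the smallest among the members. It was −0.47 on slide 1 and −0.49 on slide 2. Its other probe gave −0.83 (SE 0.11, adjusted p = 0.00163).

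Tex261, whose yeast relative helps load cargo into vesicles leaving the endoplasmic reticulum, was the other gene called higher. C arrays read 1.11, 1.16, 0.84, 0.92 and 0.84 and R arrays 1.35, 1.36, 1.32, 1.33 and 1.06. R replicate 5 fell among the C arrays and the other R arrays lay above them. The difference was 0.31 (SE 0.09), 1.24-fold higher (interval 1.07 to 1.43), with an adjusted p of 0.0257. The call was lost without R replicate 1, 2, 3 or 4 or C replicate 3 or 5 (adjusted p up to 0.0612) and with arrays scaled to their medians (0.12, adjusted p = 0.478). The other probe differed by −0.05 (adjusted p = 0.684).

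Tex264, a receptor for autophagy of the endoplasmic reticulum, differed by −0.09 (adjusted p = 0.288). Of 8 genes for such receptors and their machinery 3 were lower and 0 higher (median −0.11), against 22.9% and 13.1% of all tested genes. The lower genes were the receptors Retreg1 (−0.30, adjusted p = 0.0293), Sec62 (−0.44, adjusted p = 0.0349) and Atl3 (−0.20, adjusted p = 0.0462). Tex10, of the nucleolar rixosome that helps mature the large ribosomal subunit, differed by 0.07 (adjusted p = 0.324). Among 6 rixosome partners Las1l was lower (−0.49, adjusted p = 0.00813) and Pelp1 higher (0.26, adjusted p = 0.0121), with a median of −0.11.

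Tex2, which carries lipids between membranes through its SMP domain, differed by 0.17 (SE 0.17, adjusted p = 0.416) on its brighter probe. Its other probe, singled out after its values were seen, read −1.67, −2.31, −1.37, −1.44 and −1.82 on C arrays and −0.83, −0.72, −0.81, −0.64 and −0.47 on R arrays. All R arrays lay above all C arrays there, and the difference was 1.03 (SE 0.17, adjusted p = 0.00263). Among 6 genes of SMP lipid transfer C2cd2 was higher (0.18, adjusted p = 0.0293) and Esyt3 lower (−0.33, adjusted p = 0.0111), with a median of 0.15. Tex9 differed by −0.03 (adjusted p = 0.761) on its brighter probe and by 0.37 (SE 0.07, adjusted p = 0.00449) on the other, also singled out afterwards.

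**Figure D3:**
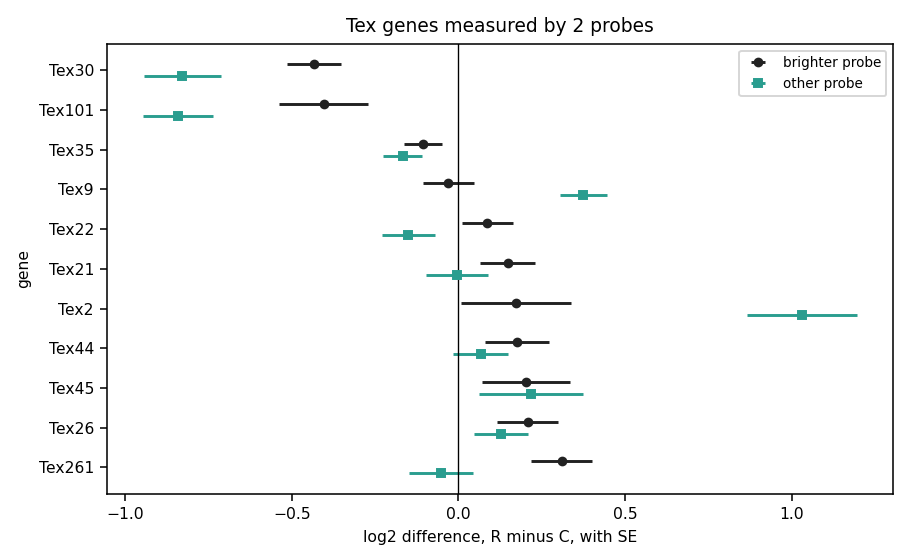
Log2 difference between R and C (x axis, R minus C) with its standard error for the 11 Tex genes that 2 probes measured (y axis), the brighter probe as circles and the other probe as squares. The probes share a sign for 7 of 11 genes; for Tex2 and Tex9 only the other probe lies clear of 0, and for Tex30 and Tex101 the other probe lies farther below 0.

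Of the 5 X-linked members 1 was lower (20%, against 22.9% of all tested genes) and 0 were higher, with a median of −0.10. Tex16 was near background, at −3.39, −3.34, −3.34, −3.64 and −3.64 on C arrays and −3.67, −3.60, −4.06, −4.13 and −3.69 on R arrays. R replicate 2 lay within the C range, and R replicates 3 and 4 were the lowest. The difference was −0.36 (SE 0.12), 1.29-fold lower (interval 1.06 to 1.56), with an adjusted p of 0.0423. Leaving out any of 7 arrays (R replicates 1, 3, 4 and 5 and C replicates 1, 2 and 3) ended the call, with an adjusted p of up to 0.0934, as did normexp background correction (adjusted p = 0.0665). Dim probes carry more background in their signal.

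Tex13a read 4.10, 4.44, 4.13, 4.18 and 4.32 on C arrays and 4.01, 4.11, 4.09, 4.02 and 3.93 on R arrays. R replicate 2 lay just above C replicate 1, and the other R arrays lay below all C arrays. The difference of −0.20 (SE 0.08) did not pass (adjusted p = 0.0688), and it passed with slide as a block (−0.24, adjusted p = 0.0403) and with arrays scaled to their medians (−0.39, adjusted p = 0.0295). Tex13b differed by −0.10 (adjusted p = 0.625), Tex13c1 by 0.15 (adjusted p = 0.295) and Tex28 by 0.18 (adjusted p = 0.287, and 0.32 with adjusted p = 0.0284 under the slide block).

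None of the other 12 autosomal Tex genes, most of them little described, was called by limma, where 36.1% of all tested genes were. Tex24 and Tex26 had an unadjusted p under 0.05 by limma, and the median over the 12 was 0.12. Tex24 had the largest difference of all members that did not pass. It read 0.44, −0.02, 1.12, 1.24 and 1.03 on C arrays and 1.19, 1.15, 1.64, 1.59 and 1.25 on R arrays. C replicates 1 and 2, both on slide 1, were low, and C replicates 3, 4 and 5 on slide 2 stood near or among the R arrays. The difference was 0.60 (SE 0.24, 95% interval 0.08 to 1.12, adjusted p = 0.0653). It was 1.18 (adjusted p = 0.0144) on slide 1, 0.11 on slide 2 and 0.80 (adjusted p = 0.0161) with slide as a block.

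Tex52 read −0.04, −0.50, 0.29, 0.20 and −0.17 on C arrays and 0.24, −0.02, 0.41, 0.19 and 0.21 on R arrays. The groups overlapped, and the difference was 0.25 (SE 0.15, adjusted p = 0.188). Tex26 read 1.67, 1.44, 1.83, 1.89 and 1.67 on C arrays and 1.99, 1.96, 1.96, 1.79 and 1.84 on R arrays. C replicates 3 and 4 lay among the R arrays, and the difference was 0.21 (SE 0.09, adjusted p = 0.0929). On slide 1 alone it was 0.37 (adjusted p = 0.0446).

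The differences of the remaining 9 genes were 0.18 for Tex44 and for Tex55, 0.15 for Tex21, 0.10 for Tex29, −0.05 for Tex36, −0.06 for Tex50, −0.07 for Tex48, −0.08 for Tex47 and −0.11 for Tex35, with adjusted p from 0.157 to 0.768. Tex35 was the one uncalled member whose C and R arrays did not overlap (adjusted p = 0.161). Its other probe differed by −0.17 (adjusted p = 0.0458).

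The spread among arrays was wider in C. C replicates 1 and 2 lay on slide 1 and C replicates 3 to 5 on slide 2, while of the R arrays only replicate 5 lay on slide 2. Spread among animals and between slides was not separated here. A member's SD over 5 arrays ran from 0.05 to 0.54 in C (median 0.16) and from 0.05 to 0.24 in R (median 0.11). The C group had the larger SD for 28 of 35 members, or 80%, as it had for 77.4% of all tested genes. C replicate 2 was the highest or lowest C array for 19 of the 35 members, against 74.3% of all tested genes. C replicate 1 was the lowest for 13 and the highest or lowest for 14, against 26% of all tested genes. R replicate 3 was the highest R array for 16 members, as the plot of members by array shows. It was the highest or lowest for 18 members, against 41.9% of all tested genes.

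**Figure D4:**
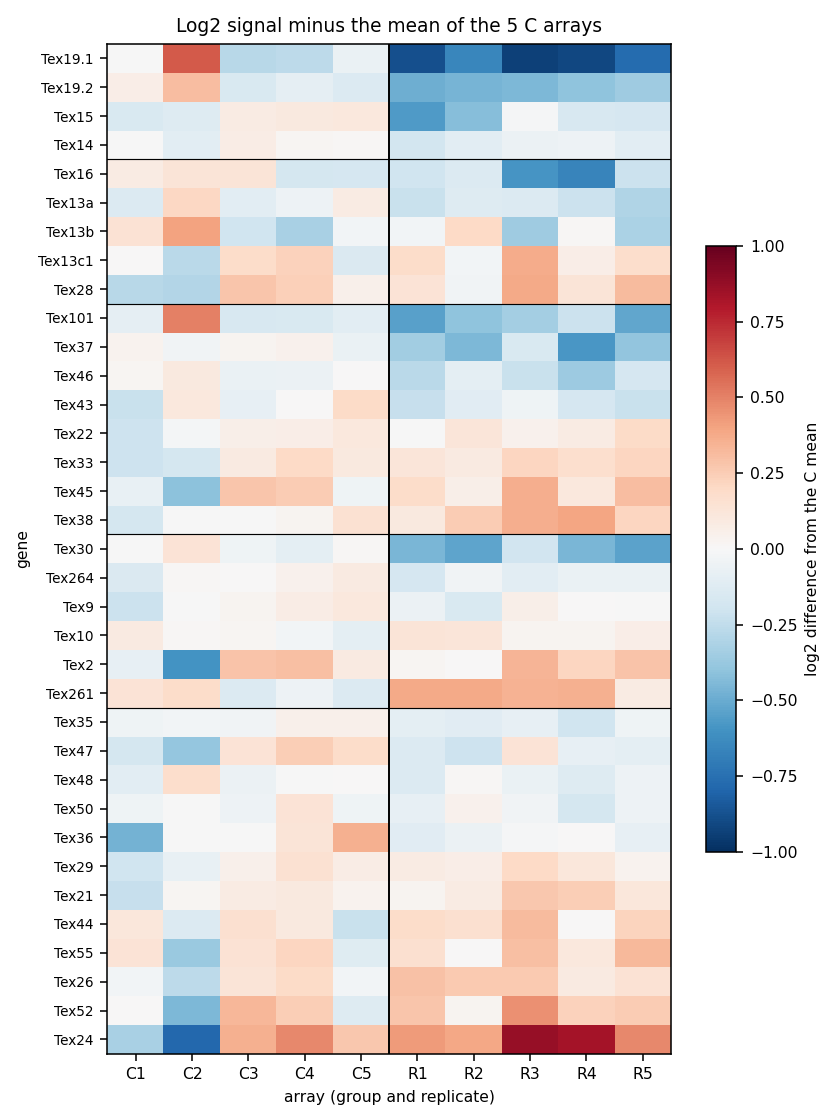
Each of the 35 Tex genes (rows) on each of the 10 arrays (columns), coloured by its log2 signal minus the mean of the C arrays. The R columns are blue for Tex19.1, Tex19.2, Tex30, Tex37 and Tex101, and C replicate 2 departs from the other C arrays in both directions.

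The number of members called in each direction moved with array median scaling and with the slide settings, while quantile normalisation gave 2 higher and 7 lower and the 75th percentile over spots 2 and 6. Scaling each array to its median in place of its 75th percentile changes every gene of an array by the same constant. It moved the difference of every gene by the same amount, and the median over all tested genes from −0.05 to −0.24. It left 0 members called higher and 13 lower, against 5.12% and 36.8% of all genes. The 6 members that joined the lower calls were Tex13a, Tex14, Tex15, Tex35, Tex43 and Tex264. With slide as a block 6 were higher and 8 lower, against 20.4% and 30.9%. On slide 1 alone 4 were higher and 4 lower, against 14.9% and 24.2%, and on slide 2 alone, with 1 R array against 3 C arrays, limma called 0 probes of the array, with 8749 at an unadjusted p under 0.05. That fit assumes that the lone R array varies like the C arrays and says nothing about stability. The signs of the 9 called genes were the same under each of these, as the plot of called genes by setting shows. Among uncalled members, 10 that lay above 0 (Tex2, Tex10, Tex13c1, Tex21, Tex22, Tex28, Tex29, Tex33, Tex44 and Tex55) lay below it with array median scaling, and 3 below 0 (Tex9, Tex36 and Tex47) lay above it with slide as a block.

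**Figure D5:**
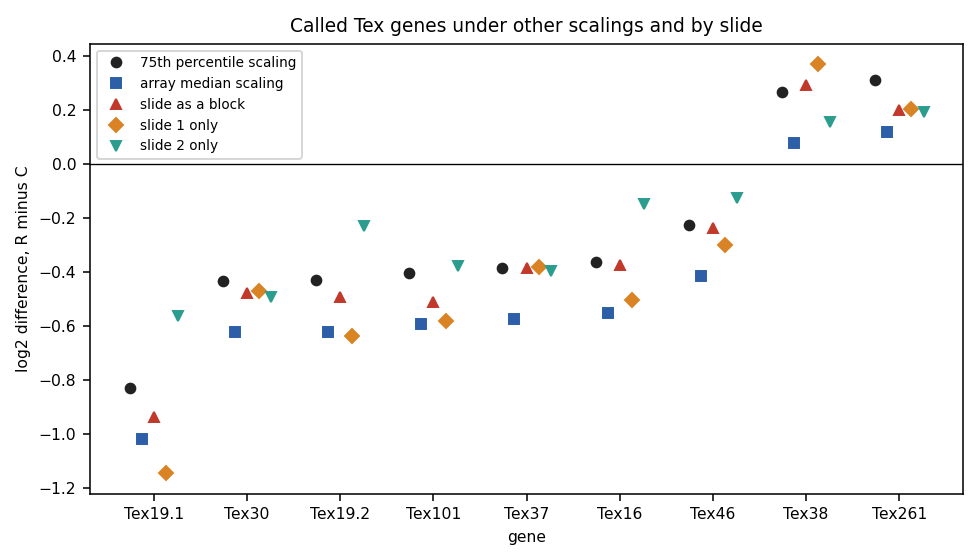
Log2 difference between R and C (y axis, R minus C) of the 9 called Tex genes (x axis) with the 75th percentile scaling, array median scaling, slide as a block, slide 1 only and slide 2 only, the last with 1 R array. All points of the 7 lower genes lie below 0 and all points of Tex38 and Tex261 above it; for Tex19.1 they span −1.15 to −0.56.

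In the authors' deposited table of 2266 probes, 6 member probes were listed, each with a q-value of 0.515. The log2 ratios in the authors' deposited table were 0.33 for Tex38, 0.18 for Tex22 and −0.29 for Tex16. For the other probes of Tex9, Tex26 and Tex21 the authors' deposited table gave 0.32, 0.22 and 0.19. The table sets C replicates 1 to 4 with R replicate 1 on its control side.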

How the data were processed

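Single testes of 5 C and 5 R males were measured on 1-colour Agilent arrays. Spot intensity values and other flags per spot are the scanner output that the authors deposited. The submitters' processing notes name Agilent Feature Extraction 12.0.3.1 as its source. Its processed intensity had local background removed and a spatial trend taken out, per the file headers. The authors' deposited comparison of 2266 probes gave q-values, p-values and log2 ratios, and 10 more of its per-sample columns were left unused.

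Control and outlier spots were left out, spots of a probe were averaged, and log2 values were centred on each array's 75th percentile over probes. A probe was tested when marked well above background in 5 or more of 10 arrays. The test was 2-sided, by lmFit and eBayes of limma 3.58.1 (R 4.3.3), with Benjamini-Hochberg adjustment over all tested probes, and 2 were dropped for a missing value. The brightest probe stood for a gene, so 11 members with 2 probes are given by the brighter. Accessions were named through a RefSeq table of GRCm38, for 33762 probes. Chromosomes come from that table, while the file headers name mm9 for the probes.

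The members, 5 role groups, 11 cell type marker lists and 8 partner lists were chosen with earlier results of these data known. Every member is named. Full values are given for called members and the 6 uncalled members of largest difference, and at most the 4 called genes of smallest p of a list are named, beside a member's partners. Other list genes are named only for a signal near background or for their weight in a summed level. Alternatives covered background correction, scaling, probe filters, probe choice, variance model, array weights, slide, grouping and leaving out each array. The files hold no mean signal, so normexp (offset 50) ran on the median signal and local background, chosen after seeing the data, as was a percentile over spots. The procedure was tested on simulated data. The number of arrays limits the precision.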

Additional observations from a re-analysis of the deposited data

Results flagged for a closer look

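Of 70 groups of 5 arrays (35 members, C and R), 5 held an array whose gap to its nearest neighbour exceeded 0.71 of the group's range, Dixon's 95% critical value. Chance alone gives about 1 in 20 such groups. For Tex101, C replicate 2 read 6.59 where the next C array read 6.00. For Tex30, R replicate 3 read 3.34 where the next R array read 3.07. For Tex261, R replicate 5 read 1.06 where the next R array read 1.32. For Tex21, C replicate 1 read 1.97 against 2.23, and for Tex50, C replicate 4 read 1.30 against 1.15.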

How the results depend on the processing

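With the 75th percentile scaling, 2 members were higher, 7 were lower, 1 met the study's criterion and the median was −0.05. Over the array, 13135 of 33851 probes were called with it, and 8979 of 56601 with no filter. Without R replicate 1 and C replicate 5 the array had 6164 called probes, so these falls were not particular to the members. The study's criterion was counted over all tested genes (10.4%) only for the main fit. Members called higher numbered 0 with array median scaling, with no filter on dim probes, on slide 2 alone and with the deposited table's grouping, 1 without R replicate 1 and C replicate 5, 4 on slide 1 and 6 with slide as a block. Members called lower numbered 13 with array median scaling, 4 with no filter, on slide 1 and without R replicate 1 and C replicate 5, and 0 on slide 2 and with the deposited grouping. The study's criterion was met by 3 with array median scaling and on slide 1, 4 with the mean of a gene's probes, 2 with the slide block, and 0 on slide 2 and with the deposited grouping. The median was −0.24 with array median scaling, 0.030 with the slide block, 0.070 on slide 1, 0.0018 without R replicate 1 and C replicate 5, and 0.015 with the deposited grouping. Array median scaling subtracts a constant from each array, so it moved the difference of every member by the same amount. The cause of the other shifts was not tested. Slides and reduced groups hold fewer arrays, and slide 2 has 1 R array, which is assumed to vary like the C arrays. Leaving out each array in turn gave 0 to 3 higher (0 without R replicate 2, 3 or 4), 4 to 7 lower (4 without R replicate 1), 1 to 2 past the study's criterion (2 without C replicate 4) and medians of −0.070 to −0.0042. Probes called over the array then ran from 9220 (without R replicate 1) to 13558 (without C replicate 4). Over 25 alternatives, the differences of the 15 members given in full kept sign and side of the threshold in 298 cases, lost the call in 63 and gained it in 12, and 1 changed sign: Tex15, uncalled, was 0.00074 with the deposited grouping (adjusted p = 0.998). No paired analysis was possible because the labels carry no replicate numbers and the numbers used here follow accession order. Signal near background limits Tex16.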
